A study of Rattus norvegicus with 244 samples.

Results

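The data described here come from 11 samples of rat raphe, 7 from animals with a moderate spinal cord injury and 4 from laminectomized animals without injury, called sham. They were chosen by title from the 84 samples of the series: injured and sham raphe at 4 h and at 24 h. Of the injured samples, 3 were taken at 4 h and 4 at 24 h, and there were 2 sham samples at each time. Injured replicate 1 at 4 h was left out because the control probe sets for actin gave a 3' over 5' signal ratio of 29.1 to 93.3 in it, a sign of degraded RNA, against 1.21 to 2.72 in the other 7 injured samples and 1.37 to 1.80 in sham. Each sample was read on 3 array types, called A, B and C here, so the comparison rests on 33 of 244 arrays.

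The labels give neither strain, sex nor age, and they give no treatment besides the operation. The tissue of the sham and naive samples is labelled "Rat Raphe Magno", while that of the injured samples is labelled "Rat Raphe", which means that the design confounds injury with whatever that wording reflects in the dissection, and these cannot be told apart. The labels do not say that samples came from separate animals, and the p-values below measure the spread between these samples, which may be technical. Naive raphe, from 4 samples without any operation (3 on type C), served as a second reference.

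The raphe nuclei lie along the midline of the brainstem, and the nucleus raphe magnus sends serotonergic and other axons down the spinal cord to the dorsal horn and the motor pools. A cord injury can sever these axons far from their cell bodies, and samples of the raphe hold both those cell bodies and the glia and vessels around them. The first hours after surgery also bring a systemic stress response, in which glucocorticoid hormone enters the brain and drives target genes such as Fkbp5 and Sgk1 in neurons and glia, and laminectomy alone can start it.

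The deposited values are array signals on a linear scale, already scaled by the authors so that arrays have the same trimmed mean. Below, a difference is the difference of mean log2(signal + 32) between groups, with its standard error (SE), so that 1 means a doubling of a well-expressed gene and less than the true change of a dim gene. The main comparison is injured minus sham within each time, over both times (n = 7 and 4), tested with limma and two-sided. A probe set passed at a Benjamini-Hochberg adjusted p below 0.05 over all probe sets of the 3 array types. Array signal is a measure of RNA in bulk tissue, in which fewer cells of a type and less RNA per cell cannot be told apart.

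The samples carried several markers of a serotonergic hindbrain region, and some of the forebrain genes listed for contrast also gave signal. Fev, the transcription factor that defines serotonin neurons, had signals of 468 to 883 in the injured and 640 to 908 in the sham samples. Slc6a4, the serotonin transporter, ranged over 773 to 1180 and 989 to 1334, and Slc17a6, the glutamate transporter of brainstem neurons, over 6354 to 10500 and 6909 to 8009. Prph and Sncg, an intermediate filament and a synuclein of brainstem and motor neurons, had signals of 1348 to 2631 and 4203 to 5992 over the 11 samples. Tph1, which makes serotonin outside these neurons, was near 0 with signals of 2.72 to 15.7, and the forebrain kinase gene Itpka did not exceed 24.8. Of the other forebrain genes listed, Tbr1 had signals of 224 to 483 and Nrgn of 245 to 578. Cck and Arpp21, also listed, were bright enough to be tested. None of the serotonin and forebrain markers that were tested passed between injured and sham, and Tph1, Itpka, Htr1a and Crym were too dim to be tested.

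In the first day after injury, few genes of the raphe could be set apart from sham. Of 16622 probe sets tested, 3 passed, which is 0.018 percent, and all 3 were higher in injured raphe: Sgca, Jak3 and a type B probe set without a gene symbol. None passed as lower in limma, where 1105 probe sets (6.65 percent) had an unadjusted p below 0.05 in that direction, against 1158 (6.97 percent) higher. In 8584 genes, each represented by its brightest probe set, 133 (1.55 percent) had all injured samples above all sham samples and 176 (2.05 percent) had all of them below. The median difference over these genes was -0.023. Leaving out a sample gave 1 to 5 calls, with 1 without sham replicate 1 at 24 h or sham replicate 2 at 4 h and 5 without sham replicate 2 at 24 h. With the degraded injured replicate 1 at 4 h put back, none passed in limma (771 at an unadjusted p below 0.05), and Sgca had 1.92 with an adjusted p of 0.051.

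Sgca encodes alpha-sarcoglycan, a membrane glycoprotein of the dystrophin complex best known from striated muscle. Its signals were 95.5 and 139 in sham raphe at 4 h and 117 and 136 at 24 h, against 364, 479 and 575 in injured raphe at 4 h and 469, 469, 579 and 589 at 24 h. The groups were far apart at both times, with the lowest injured sample above every sham sample. The difference was 1.78 ± 0.15 (log2 ± SE, n = 7 and 4, limma adjusted p = 0.0011), with 1.75 at 4 h and 1.81 at 24 h. Naive raphe did not look like sham: its 3 signals were 261, 459 and 515. Injured raphe differed from naive by 0.29 (adjusted p = 0.41), whereas sham was lower than naive by a log2 difference of -1.49 (adjusted p = 0.036). The 40th percentile of the type C arrays lay at 201 to 251, so the sham signals were in the dim part of the arrays and the gene passed the filter on dim probe sets through injured samples. Without that filter its adjusted p was 0.0014.

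Because Sgca had the smallest adjusted p, the stretch before its start is shown. It is taken from RefSeq on the build GRCr8, on the minus strand of chromosome 10 (chr10:80416076-80416325), and ends at the base before the annotated start. Its GC content was 50.8 percent.

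Sgca promoter: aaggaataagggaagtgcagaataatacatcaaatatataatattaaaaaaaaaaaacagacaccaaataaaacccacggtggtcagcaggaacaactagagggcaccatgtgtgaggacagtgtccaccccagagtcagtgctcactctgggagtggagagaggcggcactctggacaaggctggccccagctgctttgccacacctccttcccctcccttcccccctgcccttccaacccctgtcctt

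Searched on both strands, these 250 bases held none of 5 motifs: the cyclic AMP response element TGACGTCA, the AP-1 site TGANTCA, the core palindrome of glucocorticoid receptor sites ACANNNTGT, the heat shock core GAANNTTC and the E-box CACGTG. None of these motifs contains another. Over all 27457 promoters of the table, windows of the same length held them in 1.70, 6.36, 5.62, 7.02 and 5.79 percent, in that order.

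Jak3, a cytoplasmic kinase that signals for cytokine receptors with the common gamma chain and is best known from lymphocytes, was the other named gene to pass. Its signals were 52.3 and 96.4 in sham at 4 h and 17.7 and 21.8 at 24 h, against 200, 226 and 248 and then 108, 117, 151 and 173 in injured raphe. Injured samples lay above all sham samples, with the narrowest gap between sham at 4 h and injured at 24 h. The difference was 1.51 ± 0.17 (n = 7 and 4, limma adjusted p = 0.009). Here too the naive signals, 151, 164, 197 and 206, lay with the injured samples: injured minus naive was -0.02 (adjusted p = 0.94) and sham minus naive was -1.52 (adjusted p = 0.0098). Sham signals were below the 40th percentile of the type A arrays (109 to 139), so Jak3 too passed the filter through injured samples, and its adjusted p without the filter was 0.01. The adjusted p of Jak3 was 0.074 without sham replicate 1 at 24 h and 0.063 without sham replicate 2 at 4 h.

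The probe set without a symbol was bright, and unlike Sgca and Jak3 its sham samples lay with naive. Its signals were 2864 and 4471 in sham at 4 h and 2033 and 3590 at 24 h, against 7515, 10034 and 10334 and then 6903, 8260, 10004 and 10041 in injured raphe. Naive raphe gave 2609, 3057, 3498 and 4805. The groups did not overlap, and the difference was 1.52 ± 0.20 (n = 7 and 4, limma adjusted p = 0.039). Against naive it was 1.39 in injured (adjusted p = 0.0045) and -0.13 in sham raphe (adjusted p = 0.876). It kept an adjusted p below 0.05 in 2 of the 11 fits that left out a sample, with values up to 0.14. Sgca kept it in all 11, with values up to 0.015.

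**Figure D1:**
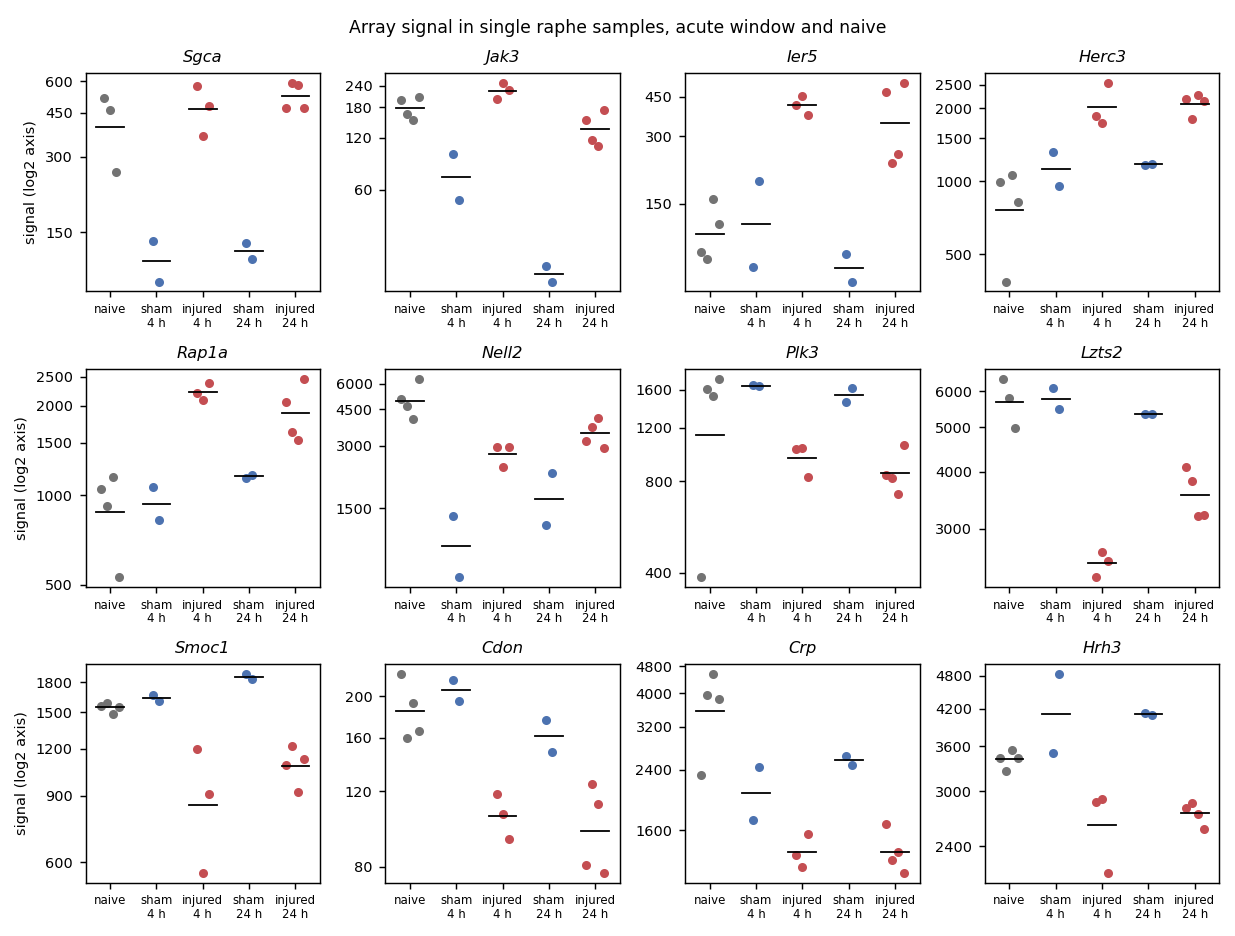
Array signal (log2 axis, its range differs between panels) of 12 genes in single raphe samples; points are samples, in grey for naive, blue for sham and red for injured, and black lines are group means of log2 signal. Sgca and Jak3 are low in sham alone (sham Sgca 95.5 to 139, naive 261 to 515), while Ier5, Herc3 and Rap1a are high in injured alone and Lzts2, Smoc1 and Hrh3 are low in injured alone.

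The higher genes next in order of p, each represented by its brightest probe set, did not pass the threshold. A dimmer type B probe set of Add1, a protein of the spectrin and actin cytoskeleton, was named after its values were seen: it had 0.93 (limma adjusted p = 0.076) and passed under 6 alternatives, while the brightest Add1 probe set gave 0.14 (adjusted p = 0.69). Ier5, an immediate early gene that promotes heat shock factor activity, had sham signals of 67.4 to 189 and injured signals of 227 to 517, with 84.6 to 157 in naive raphe. No injured sample overlapped sham or naive. Its difference from sham was 1.65 ± 0.25 (limma adjusted p = 0.076) and from naive 1.52 (adjusted p = 0.0057). Gclm, the modifier subunit of the enzyme that starts glutathione synthesis, had sham signals of 68.2 to 186 and injured signals of 205 to 444, a difference of 1.28 ± 0.23 (adjusted p = 0.103). Naive raphe lay between them, at 155 to 315, and the other Gclm probe set tested gave 0.21.

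Herc3, a ubiquitin ligase, had a difference of 0.82 ± 0.14 (adjusted p = 0.102), with 955 to 1317 in sham and 1737 to 2533 in injured raphe. Rnf13, a ubiquitin ligase of endosomes and lysosomes, had 0.72 ± 0.13 (adjusted p = 0.103). Both were also higher than naive, by 1.39 (adjusted p = 0.0058) and 1.34 (adjusted p = 0.0017). So were Cox15, which makes the heme of cytochrome oxidase (0.76 from sham, 1.05 from naive), Tsr2, a ribosomal protein chaperone (0.73 and 0.97), and Slc33a1, the acetyl-CoA transporter of the endoplasmic reticulum (0.67 and 0.81), each with an adjusted p of 0.102 to 0.104 against sham and 0.0038 to 0.0081 against naive. Rap1a, a small GTPase of adhesion and growth signalling, had 0.94 ± 0.16 from sham and 1.19 from naive (adjusted p = 0.102 and 0.0057), but its other probe set differed from sham by -0.00. All of these genes were picked for their difference from sham, and the comparison with naive uses the same injured samples. Their p-values against naive are thus no independent support, and the same holds for the other genes picked against sham.

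Drd2, the dopamine D2 receptor, was dim, with sham signals of 38.0 to 86.1 and injured signals of 115 to 205 (1.11 ± 0.19, limma adjusted p = 0.102). Its sham signals were below the filter level of the type A arrays given above for Jak3. Drd2 too thus passed the filter on dim probe sets through injured samples. Naive samples spread from 29.5 to 154 and overlapped both groups. For Nell2, a secreted neuronal glycoprotein, sham signals of 698 to 2218 lay below injured signals of 2363 to 4110, and naive signals of 4049 to 6332 lay highest. Sham was lower than naive by a log2 difference of -1.93 (adjusted p = 0.01), injured minus naive was -0.68 (adjusted p = 0.068), and injured minus sham was 1.23 ± 0.22 (adjusted p = 0.102). The other Nell2 probe set tested gave 0.00.

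Of the lower genes, the smallest adjusted p was that of Plk3, a polo-like kinase of stress and cell cycle checkpoints. Sham signals were 1649 and 1655 at 4 h and 1453 and 1616 at 24 h, and injured signals were 826, 1022 and 1027 and then 729, 822, 836 and 1054. All injured samples were below all sham samples, with a difference of -0.80 ± 0.12 (n = 7 and 4, limma adjusted p = 0.076). Of the naive samples, 3 lay near sham at 1524 to 1740 and 1 at 387.

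Lzts2, a leucine zipper protein that restrains beta-catenin, had signals of 5476 and 6084 in sham at 4 h and 5347 and 5357 at 24 h, and of 2348, 2547 and 2665 and then 3199, 3204, 3806 and 4101 in injured raphe. The difference was -0.87 ± 0.15 (limma adjusted p = 0.102), and the injured samples were also lower than naive (-0.92, adjusted p = 0.0045). A dimmer Lzts2 probe set gave 0.08. Smoc1, a secreted calcium-binding matrix protein, had 1608 to 1889 in sham and 563 to 1217 in injured raphe (-0.84 ± 0.17, adjusted p = 0.109), again with naive near sham at 1486 to 1589. Cdon, a co-receptor for hedgehog ligands, had 148 to 218 and 77.5 to 125 (-0.68 ± 0.14, adjusted p = 0.109).

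The remaining lower genes had adjusted p-values of 0.104 to 0.113 in limma. They were Crp (C-reactive protein, -0.72), Gata4 (a zinc finger transcription factor, -0.77), the olfactory receptor gene Or4b1d (-0.78), Fem1b (a ubiquitin ligase adaptor, -0.70), Hrh3 (the histamine H3 autoreceptor, -0.61), Cldn10 (a tight junction claudin, -0.58), Mcat (mitochondrial fatty acid synthesis, -0.55) and Dpy30 (a subunit of histone H3 lysine methyltransferases, -0.52). Injured and sham samples overlapped for Cldn10 alone among these. Over all genes, 2.05 percent had every injured sample below every sham sample. Genes picked by small p in the same samples overlap little because of that choice, and this holds for the other genes so named. Hrh3, with 3499 to 4829 in sham and 2154 to 2904 in injured raphe, had 3256 to 3546 in naive raphe. The 3 Dpy30 probe sets ranged from -0.63 to 0.08.

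**Figure D2:**
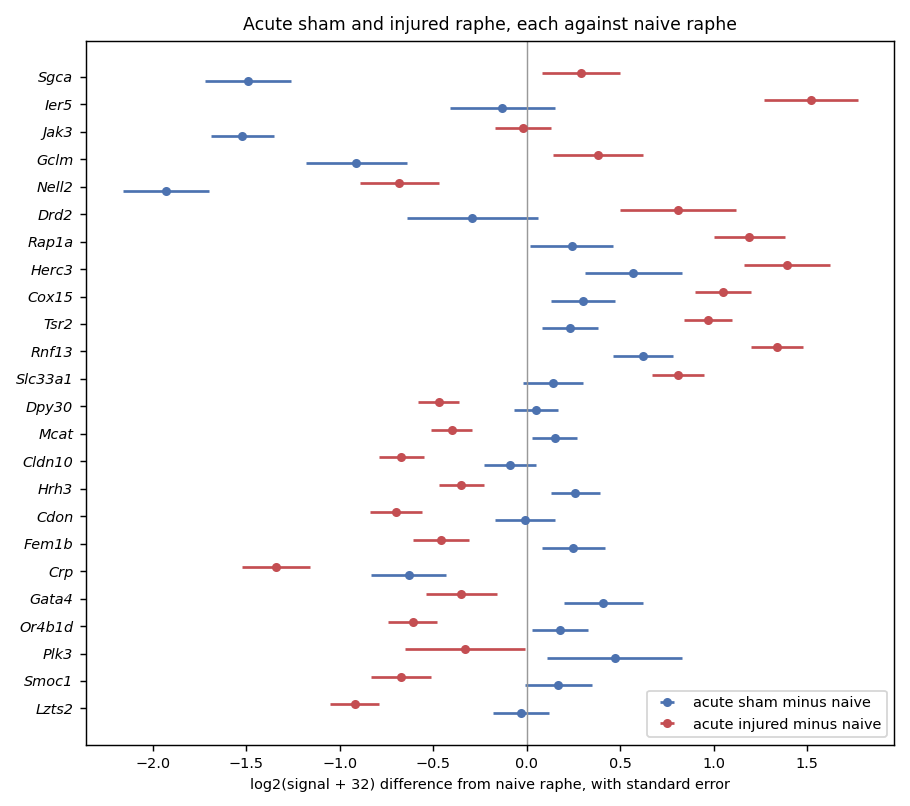
Difference of acute sham (blue) and acute injured raphe (red) from naive raphe on the log2(signal + 32) scale, points with standard errors, for the 24 named genes of the injured minus sham comparison. Both groups are set against the same naive samples; for Sgca and Jak3 injured raphe is at 0.29 and -0.02 and sham at -1.49 and -1.52, and for Ier5 injured is at 1.52 and sham at -0.13.

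When all raphe groups of the series were fitted together, so that they shared an estimate of the spread, the same acute contrast gave 137 calls of 18503 probe sets (0.74 percent), 88 higher and 49 lower, in limma. The 3 calls of the 11 samples were among them. Of the 137, 126 were tested with the 11 samples alone and had an unadjusted p below 0.05 there. Both fits take the contrast from the same 11 samples, so these overlaps were largely fixed in advance and are no independent support. The joint fit included raphe samples at 3 months, and its shared spread rests on them too. Those samples were left out of the comparison of time windows below. The reason was a sham sample at 3 months that went against its region label in an earlier analysis. Serinc1, a serine incorporator of membranes, had the largest difference after Sgca among the named rises of that fit, 1.67 (adjusted p = 0.038). Its sham signals were 351 to 785 and its injured signals 2224, 2343 and 3080 at 4 h and 729, 1290, 1585 and 2055 at 24 h, so the groups were apart at 4 h and overlapped across times. Ier5 (1.64, adjusted p = 0.0096), Wipf1 (1.05, adjusted p = 0.01), a partner of the actin regulator WASP, and the transcription factor Yy1 (0.87, adjusted p = 0.0096) passed as well. So did Gclm (1.28, adjusted p = 0.013), Rab1a (1.00, adjusted p = 0.045), a GTPase of transport from endoplasmic reticulum to Golgi, and Zfp24 (1.11, adjusted p = 0.034), a transcription factor needed for myelination. With the 11 samples alone, the other probe set of Yy1 gave -0.11 and that of Zfp24 0.22, and the 3 of Rab1a ranged from 0.06 to 0.98.

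Among the falls of that joint fit, the cytochrome P450 genes Cyp2b15 and Cyp2a2 differed by -1.25 (limma adjusted p = 0.033) and -1.30 (adjusted p = 0.023). Cyp2a2 had 109 to 767 in sham and 34.0 to 119 in injured raphe and was too dim to be tested with the 11 samples. Hes6, a transcription factor of neuronal differentiation, had sham signals of 1292 to 1425 and injured signals of 596 to 1097 (-0.69, adjusted p = 0.0096). Smoc1 (-0.84, adjusted p = 0.0096), Lzts2 (-0.89, adjusted p = 0.0096), Mllt1 (-0.70, adjusted p = 0.027), a chromatin reader of transcription elongation, and Slc25a20 (-0.70, adjusted p = 0.027), the carnitine carrier of mitochondria, passed too.

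At each time alone, no probe set passed in limma. At 4 h (n = 3 and 2), 2071 of 16622 (12.5 percent) had an unadjusted p below 0.05, and at 24 h (n = 4 and 2), 1117 (6.72 percent). No probe set passed in the test of the difference between the times either, where 859 (5.17 percent) had an unadjusted p below 0.05, and 1 passed after quantile normalization. The smallest p there was that of Dpep2, a membrane dipeptidase of leukotriene metabolism, with 324 and 371 in sham at 4 h and 46.3 and 76.0 at 24 h, against 156 to 222 and 182 to 277 in injured raphe. The injured samples were alike at both times, and the sham samples differed (unadjusted p = 3e-05, adjusted p = 0.247). Cyp4b1, a fatty acid hydroxylase, had 147 and 174 in sham at 4 h, 16.7 and 55.7 at 24 h, 95.8 to 157 in injured raphe at 4 h and 206 to 410 at 24 h (unadjusted p = 0.00014, adjusted p = 0.762).

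Between injured and naive raphe (n = 7 and 4), 1080 of 17175 probe sets passed in limma (6.29 percent), 631 higher and 449 lower. Between sham and naive (n = 4 and 4), 19 passed (0.111 percent), with 1971 (11.5 percent) at an unadjusted p below 0.05, and 2 to 32 passed when a sample was left out. The 2 comparisons share the naive samples, and the number of samples differs between them. The call count of injured against naive ranged from 490 without naive replicate 4 to 1220 without injured replicate 2 at 24 h. Ipo9, a nuclear import receptor, had naive signals of 88.0 to 554, sham signals of 1540 to 2123 and injured signals of 1218 to 2537. It rose in both operated groups, by 2.43 in injured (adjusted p = 0.0038) and 2.42 in sham raphe (adjusted p = 0.036), and injured minus sham was -0.01.

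Several genes that glucocorticoids induce rose in injured against naive raphe. Of 31 such genes on the arrays 29 were tested, and 10 rose and none fell in injured against naive raphe (16 and 3 at an unadjusted p below 0.05 in limma), with a median of 0.59. Over all 8749 genes the median was -0.028, 3.90 percent rose and 2.93 percent fell, and 12.4 percent had an unadjusted p below 0.05 on either side. They were Pdk4 (2.24), which shuts glucose carbon out of the citric acid cycle, Arrdc2 (1.90), Fkbp5 (1.78), a chaperone that damps the glucocorticoid receptor, Sgk1 (1.77), a kinase of ion transport, Dusp1 (1.62), a phosphatase of MAP kinases, the cell cycle inhibitor Cdkn1a (1.45), the transcription factor Klf9 (1.18), Sult1a1 (1.12), the glucose transporter Slc2a1 (1.04) and Tsc22d3 (0.59), with adjusted p-values of 0.0051 to 0.041. When a sample was left out, Dusp1 kept an adjusted p below 0.05 in 2 of 15 fits, Slc2a1 and Tsc22d3 in 11 and Cdkn1a in 13, and the other 6 genes in all 15. In sham against naive raphe none of the 29 passed, 10 had an unadjusted p below 0.05 on the higher side (6.05 percent of all genes), and the median was 0.41. In injured against sham raphe none passed, 2 had an unadjusted p below 0.05 on the higher side (6.92 percent of all genes), and the median was 0.18, with -0.11 at 4 h and 0.32 at 24 h. The receptor's palindrome, as spelled above, stood in 2.42 percent of the 289 promoters of genes that rose in injured against naive raphe and in 3.44 percent of the 7152 promoters of genes tested against sham.

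Single samples show how time entered. Fkbp5 signals were 95.2, 120 and 137 in naive raphe, 772 and 812 in sham at 4 h, 96.2 and 151 in sham at 24 h, 310, 994 and 1352 in injured raphe at 4 h, and 254, 263, 334 and 362 at 24 h. Sham at 24 h was thus within or next to the naive range and injured raphe at 24 h above it. Sgk1 was at 474 to 949 in naive, 2578 and 3990 in sham at 4 h, 954 and 1702 in sham at 24 h, 917, 2763 and 3210 in injured at 4 h and 2192 to 3070 in injured raphe at 24 h. Arrdc2 was at 311 to 802, 2814 and 2985, 854 and 1058, 1124 to 3668 and 1606 to 2254 in the same order. At 24 h every injured sample of these 3 genes was above both sham samples, and at 4 h the groups overlapped. The 3 were picked from the genes called against naive, and the share of all genes so separated at 24 h was not counted. Of the 29 listed genes, 8 had an unadjusted limma p below 0.05 on the higher and 1 on the lower side at 24 h. Over all genes these shares were 3.25 and 3.41 percent. At 4 h the counts were 2 and 0 (7.09 and 5.84 percent of all genes).

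The difference between the times had an unadjusted p of 0.0263 for Sgk1, 0.0344 for Arrdc2, 0.0296 for Pdk4 and 0.094 for Fkbp5, and adjusted p-values of 0.916 to 0.919 in limma. Injured replicate 3 at 4 h was the lowest of the 3 injured samples at 4 h for each of the 10 genes named above. Without it, the injured minus sham difference of Fkbp5 over both times was 0.86 in place of 0.55. Because that sample was picked as the lowest, a larger difference without it carries no further information. Over all fits that left out a sample, the Fkbp5 difference ranged from 0.30 to 0.86 (limma adjusted p = 0.161 to 0.755). Tsc22d3, the leucine zipper gene GILZ, had 1870 to 2543 in naive, 2505 to 2990 in sham and 2975 to 4242 in injured raphe, with an injured minus sham difference of 0.31 (adjusted p = 0.302).

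**Figure D3:**
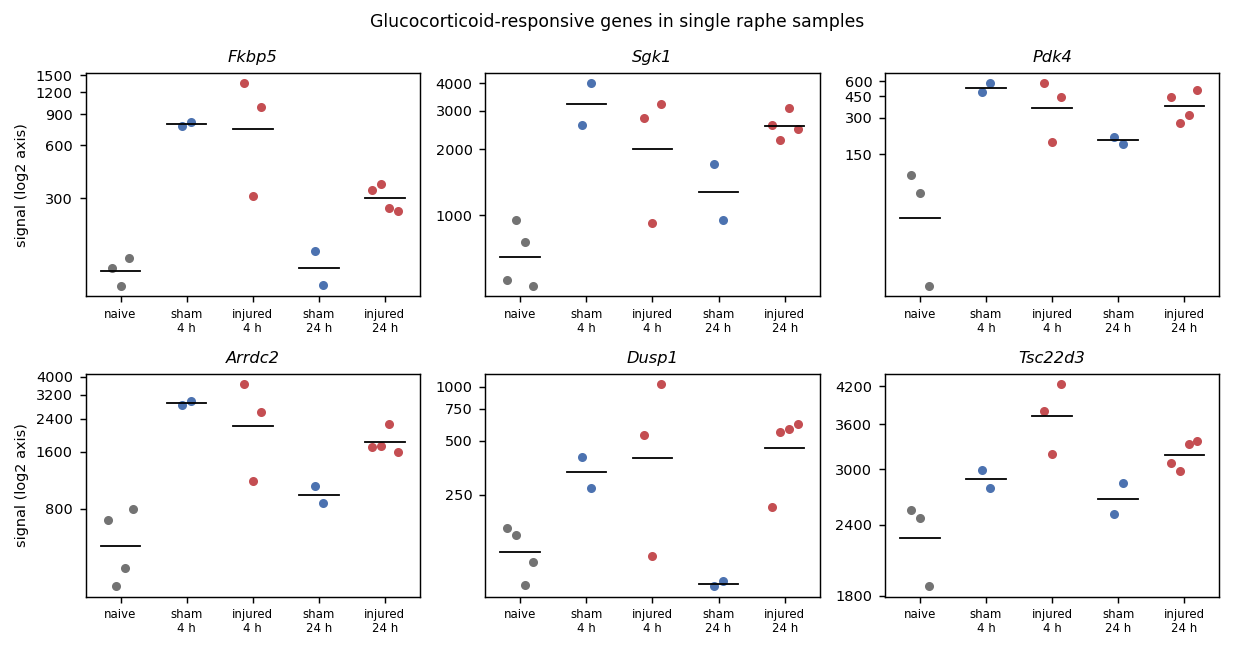
Array signal (log2 axis, its range differs between panels) of 6 glucocorticoid-responsive genes in single raphe samples; black lines are group means of log2 signal. For Fkbp5, sham is at 772 and 812 at 4 h and at 96.2 and 151 at 24 h, near naive (95.2 to 137), while the 4 injured samples at 24 h lie at 254 to 362.

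No gene of the serotonin system passed against sham. Of 19 tested genes of serotonin and monoamine metabolism none passed against sham in limma, 2 had an unadjusted p below 0.05, both lower, and the median was -0.16. Over all genes 6.92 percent had such a p on the higher and 7.07 percent on the lower side. Dbh, which makes noradrenaline, had 746 to 1364 in sham and 136 to 762 in injured raphe, a difference of -1.09 (adjusted p = 0.217), and naive raphe had 201 to 579, with the injured samples. Of 8 tested serotonin receptors, 1 had an unadjusted p below 0.05 on the higher and 4 on the lower side, with a median of -0.28. Htr2c, the receptor of choroid plexus and motor areas, was that higher gene, with 2071 to 3996 in sham, 3469 to 5865 in injured and 1128 to 2341 in naive raphe (0.74 from sham, adjusted p = 0.183). It rose against naive by 1.64 (adjusted p = 0.0038). Htr2b and Htr5a had -0.54 and -0.47 from sham (adjusted p = 0.308 and 0.273). Htr2b, a receptor best known from peripheral tissues, fell against naive (-0.84, adjusted p = 0.013).

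None of the 36 gene lists had a member past the threshold against sham, and list medians lay between -0.29 and 0.18. That of the choroid plexus, the epithelium that makes cerebrospinal fluid, was -0.29. Of its 11 tested genes 10 were below 0 (54.0 percent of all genes). An unadjusted p below 0.05 was found for 2, both lower (7.07 percent of all genes). The median of this list was 0.04 at 4 h, with 6 genes above 0, and -0.60 at 24 h. Averaged over every probe set per gene it was -0.22, and the serotonin receptors were then lowest at -0.28. The median of the same list was -0.05 in injured and 0.45 in sham against naive raphe. Kcne2, a potassium channel subunit of that epithelium, had 268 to 519 in sham and 59.6 to 356 in injured raphe (-0.82, limma adjusted p = 0.325), with the 4 samples at 24 h all below sham and those at 4 h within its range. Sostdc1, a secreted inhibitor of BMP and Wnt ligands, had -0.91 (adjusted p = 0.362). Htr2c, which this epithelium also expresses, differed in the opposite direction, and the part of choroid plexus tissue in these values was not tested.

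Glial and inflammatory genes showed no direction common to all lists. Of 27 microglia and macrophage genes 3 had an unadjusted p below 0.05 on either side, with a median of -0.10. Over all genes 6.92 percent had such a p on the higher and 7.07 percent on the lower side, and 54.0 percent were below 0. P2ry12, the purine receptor of resting microglia, had 192 to 307 in sham and 300 to 465 in injured raphe (0.63, limma adjusted p = 0.162). Cd68, a lysosomal protein of phagocytes, and Cd74, the invariant chain of antigen presentation, had -0.59 and -1.15 (adjusted p = 0.2 and 0.193), but the 5 probe sets of Cd74 reached 0.63. Of 25 cytokine, chemokine and adhesion genes 18 were below 0 and the median was -0.20, with Il1b at -0.56 (adjusted p = 0.355). Of 27 myelin and oligodendrocyte genes 6 had an unadjusted p below 0.05 on the higher and 1 on the lower side, with a median of 0.10. Opalin, a myelin membrane protein, had 1111 to 1639 in sham and 1423 to 2318 in injured raphe (0.68, adjusted p = 0.153), Aspa, which breaks down N-acetylaspartate, had 0.75 (adjusted p = 0.263) and Sox10, the oligodendrocyte transcription factor, had 0.47 (adjusted p = 0.227).

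Most ribosomal protein genes had differences below 0. Of 57 tested, 39 were below 0 (54.0 percent of all genes), and the median was -0.13, or -0.09 with the mean of all probe sets. An unadjusted p below 0.05 was found for 8 on the lower and 2 on the higher side (7.07 and 6.92 percent of all genes). The higher ones were Rps21 (1.23, limma adjusted p = 0.321) and Rpl22l1 (0.57, adjusted p = 0.249). Against naive raphe 8 of 58 fell (2.93 percent of all genes) and 2 rose (3.90 percent of all genes), Rps21 (2.06, adjusted p = 0.032) and Rpl22l1 (0.61). Rpl34 had 25510 to 30203 in sham and 19752 to 24679 in injured raphe without overlap (-0.37, limma adjusted p = 0.186), and Fau had 31538 to 35724 and 22037 to 28190 (-0.39, adjusted p = 0.199). Both of these fell against naive raphe, with differences of -0.58 (adjusted p = 0.0081) and -0.65 (adjusted p = 0.01). Of 80 respiratory chain genes 52 were below 0 with a median of -0.09, and of 30 genes of endoplasmic reticulum stress 21 were below 0 with a median of -0.17. That median was -0.01 at 4 h, -0.22 at 24 h and -0.04 with the mean of all probe sets, and Atf6, a sensor of that stress, had 0.97 (adjusted p = 0.223). Nr4a2, a nuclear receptor among the immediate early genes, had 179 to 258 in sham and 24.6 to 176 in injured raphe, with no overlap (-1.12, adjusted p = 0.202).

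**Figure D4:**
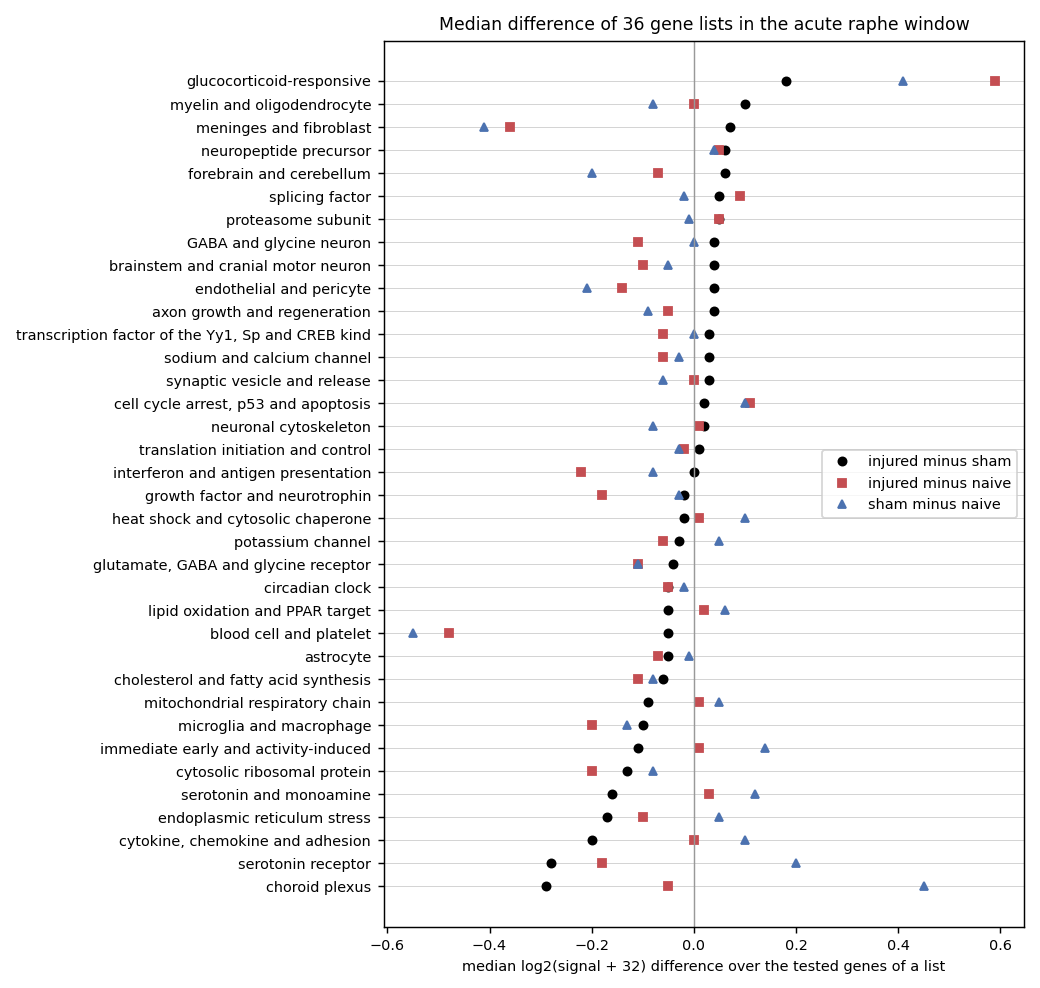
Median log2(signal + 32) difference over the tested genes of 36 lists for injured minus sham (black), injured minus naive (red) and sham minus naive raphe (blue); the 3 comparisons share samples. The glucocorticoid-responsive list is at 0.18, 0.59 and 0.41, and the medians of blood cells and meninges lie below 0 against naive in both operated groups.

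Some markers of blood and meninges fell in injured against naive raphe. Over all genes in that comparison 2.93 percent fell and 3.90 percent rose, and 12.4 percent had an unadjusted p below 0.05 on either side. Of 11 tested blood cell and platelet genes 3 fell and none rose in injured against naive raphe (6 and 1 at an unadjusted p below 0.05), with a median of -0.48, and the sham median was -0.55 with none past the threshold in limma and 7 at an unadjusted p below 0.05 on the lower side (5.35 percent of all genes). Hba-a1, a haemoglobin chain, had 78312 to 95512 in naive, 48377 to 62708 in sham and 29616 to 58494 in injured raphe (-0.92 from naive, adjusted p = 0.0088). Pf4, a platelet chemokine, had 345 to 734, 90.8 to 138 and 58.9 to 335 (-1.17, adjusted p = 0.04), and kept an adjusted p below 0.05 in 3 of the 15 fits that left out a sample. Of 31 genes of meninges and fibroblasts 3 fell and none rose in injured against naive raphe (11 and 2 at an unadjusted p below 0.05), with a median of -0.36. In sham against naive raphe 1 of these fell and none rose (0.0686 and 0.0571 percent of all genes), with a median of -0.41. There 11 and 1 had an unadjusted p below 0.05 (5.35 and 6.05 percent of all genes). Vtn, the adhesion protein vitronectin, had 1078 to 1476 in naive, 563 to 807 in sham and 523 to 973 in injured raphe, and it fell in both (-0.87 and -0.88, adjusted p = 0.0042 and 0.036). Against sham the medians of these lists were -0.05 and 0.07, and their part in the other differences from naive was not tested.

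For all tested probe sets, the injury difference of this window was compared with that at 7 d, 14 d and 28 d. The later raphe samples were 12 injured and 6 sham, in a fit of both windows. The difference between the windows passed for 24 of 17966 probe sets (0.134 percent), 12 in each direction, of which 14 had a gene symbol. The count was 0 without sham replicate 1 at 24 h and 75 without injured replicate 1 at 28 d. Sgca had 1.78 ± 0.30 in the acute and -0.51 ± 0.24 in the later window (limma adjusted p of the difference = 0.028). Atp5mg, a subunit of ATP synthase, had 0.85 and -0.04 (adjusted p = 0.009), Fdft1, which makes squalene for cholesterol, 0.78 and -0.11 (adjusted p = 0.035), and Thy1, a neuronal surface glycoprotein, 0.60 and -0.36 (adjusted p = 0.048). In the 11 samples alone the 7 probe sets of Fdft1 ranged from -0.12 to 0.79 against sham, the 4 of Thy1 from -0.17 to 0.60 and the 3 of Atp5mg from 0.07 to 0.84. When 1 of the 29 samples was left out, Thy1 kept its call in 9 fits and Fdft1 in 16. The type B probe set without a symbol had 1.51 and -0.08 (adjusted p = 0.044).

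S100a11, a calcium-binding protein of reactive cells, had 0.03 in the acute and 1.73 in the later window (limma adjusted p = 0.028), and Psmb8, a subunit of the immunoproteasome, 0.06 and 0.98 (adjusted p = 0.035). Kcnk2, a potassium leak channel, had -0.71 and 0.45 (adjusted p = 0.035; its other probe set gave -0.16 in the acute window) and Dpy30 had -0.52 and 0.36 (adjusted p = 0.028). Pnoc, the precursor of the peptide nociceptin, had -1.90 and -0.19 (adjusted p = 0.028) on a probe set too dim to be tested in the 11 samples: its signals were 129 to 247 in sham, 23.7 to 37.2 in injured and 23.1 to 45.9 in naive raphe. The 3 other Pnoc probe sets tested gave -0.24 to -0.14 against sham.

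**Figure D5:**
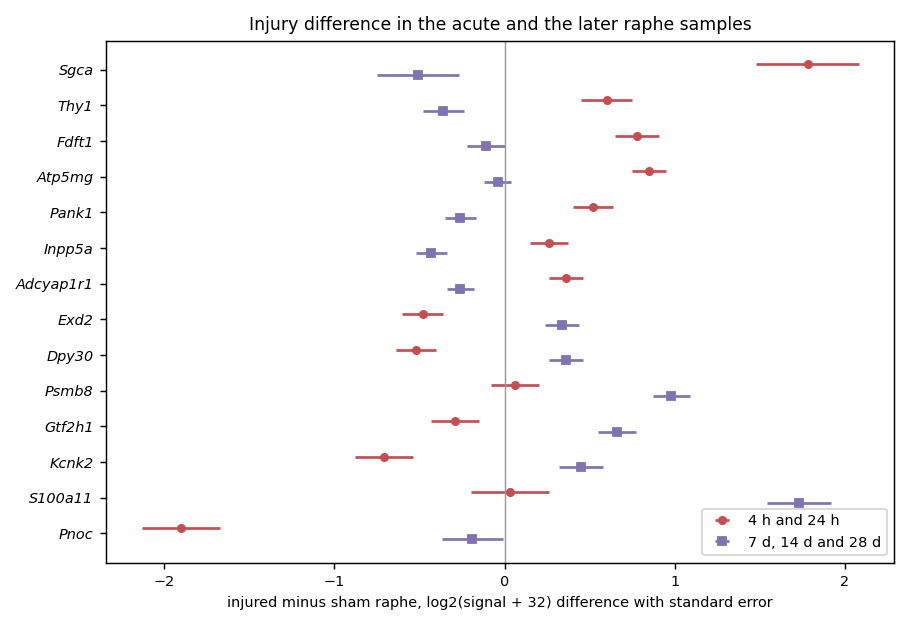
Injured minus sham difference on the log2(signal + 32) scale with standard error for the 14 genes whose difference passed between windows, at 4 h and 24 h (red) and at 7 d, 14 d and 28 d (purple). Sgca is at 1.78 and -0.51, Pnoc at -1.90 and -0.19 and S100a11 at 0.03 and 1.73.

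The acute injury difference of the raphe was also set against that of the somatomotor cortex at the same times (8 injured and 4 sham samples). Of 17954 probe sets 1 passed (0.00557 percent) in the test of the difference between regions, with 1729 at an unadjusted p below 0.05 in limma, and 0 to 11 passed when a sample was left out, 0 for instance without sham raphe replicate 1 at 24 h. It was a dim probe set of Brd2, a chromatin reader, with 0.19 in raphe and -1.57 in cortex (difference 1.76 ± 0.27, adjusted p = 0.047). Next came Lzts2, with -0.89 in raphe and 0.05 in cortex (adjusted p = 0.05), and Nell2 had 1.24 and -0.34 (adjusted p = 0.093). Another type C Brd2 probe set, too dim for the filter, had -1.38 in injured against sham raphe without that filter (limma adjusted p = 0.043).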

How the data were processed

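RNA of 84 rat samples was measured on 3 types of array with 8799, 8791 and 8789 probe sets (A, B and C). The deposited values are intensities, 1 per probe set on a linear scale, scaled per array by the authors; the 2 percent trimmed mean was 800.53 to 801.29 on the arrays of the acute samples, and which program made them was not given in the sources used here. Groups came from the titles. Of 26202 probe sets without controls, 18178 had a single symbol in the platform annotation. After adding 32 and taking log2, a model with time and treatment was fitted per array type with limma 3.58.1 (R 4.3.3), for probe sets above the 40th percentile of their array on at least 4 arrays, with Benjamini-Hochberg adjustment over the 3 types. The fit was run on simulated data with independent noise, in which changes were added to bright probe sets alone. That run does not cover dim genes or deviations shared by the probe sets of a sample. Comparisons with naive, later raphe and cortex samples were fitted with those groups added. Named genes were the 12 of smallest p or largest change in each direction, up to 3 of smallest p per gene list and 5 per other comparison, plus the largest rises and falls of the joint raphe fit and against naive and all glucocorticoid list calls, added later. Cyp4b1, Pnoc, Kcnk2 and other genes of the window comparison were named because they passed or had the smallest p there. The members and gene lists were chosen with earlier results of these data known. Samples at 30 min and 72 h were not used, and those of raphe at 3 months were used in the joint fit alone. They were left out of the window comparison because a sham sample there went against its region label in an earlier analysis. The number of arrays and the signal over background limit the precision, and the added 32 draws differences of dim genes towards 0. Alternatives are listed in the closing section.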

Additional observations from a re-analysis of the deposited data

Results flagged for a closer look

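In 10 of 160 checked groups of 4 samples or more of a named gene, 1 sample lay far from the others (Dixon's criterion, gap over range above 0.829 for 4 samples), which chance gives in about 1 in 20 groups. In injured raphe at 24 h these were the high signals of Cldn10 (3952 in replicate 3, others 3141 to 3204), Crabp2 (83.1 in replicate 2, others 35.4 to 40.8) and Sult1a1 (2318 in replicate 2, others 1527 to 1626). The low signals in that group were those of Cyp2b15 (86.0 in replicate 1, others 270 to 283), Dbh (136 in replicate 3, others 468 to 550), Dusp1 (214 in replicate 1, others 559 to 615) and Fem1b (251 in replicate 2, others 315 to 321). In naive raphe the low signals were those of Fdft1 (175 in replicate 3, others 634 to 728), Plk3 (387 in replicate 1, others 1524 to 1740) and Sostdc1 (180 in replicate 1, others 256 to 273).

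The injury difference of the acute window minus that of 7 d to 28 d passed the test in limma for the following named genes. It was positive for Sgca (2.29), the type B probe set without a symbol (1.60), Thy1 (0.96), Atp5mg (0.89) and Fdft1 (0.89), and negative for Pnoc (-1.71), S100a11 (-1.70), Kcnk2 (-1.16), Psmb8 (-0.92) and Dpy30 (-0.88). Between regions, the raphe minus cortex difference of the dim Brd2 probe set was 1.76.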

How the results depend on the processing

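The count of probe sets past the threshold for injured against sham raphe was 3 as reported. It was 7 without a filter, 5 with a filter at the 60th percentile, 8 with a larger added constant and 15 with array quality weights. Adjustment within each array type gave 36, an intensity trend 16, the joint raphe fit 137 and naive in place of sham samples 772. The count was 0 with injured replicate 1 at 4 h put back, 0 at 4 h alone and 0 at 24 h alone. Without injured replicates 2 and 3 at 4 h it was 1, an alternative chosen after seeing the data like the correction for place in identifier order. It was 1 to 5 when a sample was left out. The 60th percentile filter kept neither Sgca nor Jak3, and 1 of its 5 calls was among the 3 reported.

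Groups share replicate numbers, but deviations of samples with the same number were correlated at 0.0622, -0.0739 and -0.0426, so the numbers were not taken to pair them. With the replicate number as a block, 0 probe sets passed (1259 at an unadjusted p below 0.05 in limma), with 709 against 1080 for injured against naive, 1 against 19 for sham against naive, 11 against 24 between windows and 0 against 1 between regions. Sgca then had 1.90 (adjusted p = 0.073) and Jak3 1.53 (adjusted p = 0.14).

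The difference between the times gave 1 call with quantile normalization and 1 with adjustment within each array type, and 0 to 2 when a sample was left out. Injured against naive gave 83 with injured replicate 1 at 4 h, and 490 to 1220 when a sample was left out. Sham against naive gave 34 with quantile normalization, 36 with the 60th percentile filter, 45 with the larger constant, 0 with injured replicate 1 at 4 h, 45 with array weights, 43 within types, 55 with the trend and 29 with the correction for place, and 2 to 32 when a sample was left out. In the same order as far as they moved it, the difference between windows gave 14 without a filter, 42 with the 60th percentile filter, 0 with injured replicate 1 at 4 h, 3 with weights, 53 within types, 40 with the trend and 12 with the correction, and 0 to 75. The difference between regions gave 4 with quantile normalization, 4 without a filter, 0 with the 60th percentile filter, 0 with 1 added, 6 with the larger constant, 0 with injured replicate 1 at 4 h, 7 with weights, 4 within types and 5 with the correction, and 0 to 11.

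Of 1714 alternative values for 62 named genes in injured against sham raphe, 1584 kept direction and side of the threshold, 28 lost and 82 gained it, and 20 had the opposite sign. At 4 h alone these were Arrdc2 (-0.39), Cdkn1a (-0.11), Fkbp5 (-0.07), Kcne2 (0.04), Klf9 (-0.44), Pdk4 (-0.49), Sgk1 (-0.66) and Sult1a1 (-0.41). With naive in place of sham they were Dbh (0.12), Jak3 (-0.02), Nell2 (-0.68) and Pf4 (-1.17). With injured replicate 1 at 4 h they were Pdk4 (-0.23) and Sgk1 (-0.20). Klf9 had -0.02 with array weights and -0.09 to 0.23 when a sample was left out, with the opposite sign for 4 samples, at -0.04, -0.09, -0.00 and -0.00. Sgk1 had -0.16 without sham replicate 2 at 24 h and up to 0.52 without injured replicate 3 at 4 h. The cause was not tested. Against naive, 433 of 512 alternative values for 20 genes in injured raphe kept the call and 79 lost it. The comparison at a single time rests on 2 sham samples, and the number of arrays and the signal over background limit all of these values.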

Other observations

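The following 4 genes, chosen after their values were seen, were among the largest falls in injured against naive raphe. Aldh1a2, which makes retinoic acid, had naive signals of 126, 228, 248 and 1213, sham signals of 44.1 to 68.0 and injured signals of 13.2 to 211 (-2.16 from naive, limma adjusted p = 0.034). Crabp2, a retinoic acid carrier, had 138 to 342 in naive, 26.1 to 80.7 in sham and 35.4 to 132 in injured raphe (-1.56, adjusted p = 0.0063). Gjb2, a connexin, differed from naive by -2.10 (adjusted p = 0.016) and Wnt4, a secreted Wnt ligand, by -1.89 (adjusted p = 0.015). In sham against naive raphe the same 4 genes had -1.95, -1.65, -1.56 and -1.86, none past the threshold (adjusted p = 0.231, 0.054, 0.223 and 0.104), and Gjb2 and Wnt4 differed between injured and sham by -0.53 and -0.06.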
